A study of Mus musculus with 8 samples.

Results

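The basement membrane genes examined here are 10 genes of the glomerular and tubular basement membrane: the collagen IV chains Col4a1, Col4a2, Col4a3, Col4a4 and Col4a5, the laminin chains Lama5, Lamb2 and Lamc1, and the heparan sulfate proteoglycans Agrn (agrin) and Hspg2 (perlecan). They were chosen by name: every non-control probe of the array annotated to 1 of these genes was taken, which gave 18 of 56605 probes. Of these, 15 probes passed the filter on dim signal, at least 1 for each of the 10 genes, among 33639 probes that passed in all. Across the 8 arrays, 14 of the 15 were well above background on every one.

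RNA was read from kidney tissue of 8 male mice on the C57BLKS/J Iar strain, 20 weeks old, in 4 groups of 2 mice. A first group of db/db mice (+Leprdb/+Leprdb) received a mimic of miR-181b-5p in particles labelled PEI-NPs (mimic kidneys below). A second db/db group received control miRNA in the same kind of particle (control miRNA kidneys), and the remaining db/db group was left untreated (untreated db/db kidneys). The normal mice (m+/m+, also given as m/m) have no Leprdb allele in their label. The Leprdb mutation removes the long form of the leptin receptor from every tissue, so the db/db mouse is obese and diabetic as well as altered in the kidney, and no group here separates these. The sources used here do not state the particles' dose, route or schedule, and none of the 8 is a normal mouse given particles.

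A basement membrane is a thin sheet of matrix built on 2 polymer networks, collagen IV and laminin, which nidogen and the proteoglycans perlecan and agrin hold together. In the glomerulus the sheet lies between podocytes and capillary endothelium and is part of the filter that keeps protein out of urine. The mature glomerular sheet uses the collagen IV trimer of the α3, α4 and α5 chains, made by podocytes, and the laminin of the α5, β2 and γ1 chains. The α1 and α2 chains form the other common trimer, which is found in the mesangium, around tubules and in vessels, and which thickened diabetic matrix is known to hold. Loss of α3, α4 or α5 causes Alport syndrome in people, with a thinned and split glomerular sheet.

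The sequences that define the treatment and the gene pairs come first. The mature miRNA that the mimic copies is shown with its seed, bases 2 to 8, in capitals, because the seed is what a miRNA uses to find its targets. RefSeq (GRCm38.p6) places it at chr1:137966650-137966673 and chr2:38853845-38853868, both on the plus strand.
miR-181b-5p: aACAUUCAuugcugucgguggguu

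Col4a1 and Col4a2 lie head to head on chromosome 8, and Col4a3 and Col4a4 do so on chromosome 1. The promoters of the first pair and of Col4a4 are shown for that reason. The RefSeq start sites of Col4a1 (11312826) and Col4a2 (11312805) on GRCm38.p6 lie 21 bases apart, and their promoter windows (250 bases before to 50 after the start) share 78 bases. Col4a1, on the minus strand, starts at the higher position, so the annotated starts overlap and leave no gap between the genes. Each window below is written 5′ to 3′ on its own gene's strand, and capitals mark a GC box (GGGCGG) or a CCAAT box (CCAAT), searched on both strands. The Col4a1 window is chr8:11312777-11313076 on the minus strand, the Col4a2 window chr8:11312555-11312854 on the plus strand, and the Col4a4 window chr1:82586800-82587099 on the minus strand.
Col4a1: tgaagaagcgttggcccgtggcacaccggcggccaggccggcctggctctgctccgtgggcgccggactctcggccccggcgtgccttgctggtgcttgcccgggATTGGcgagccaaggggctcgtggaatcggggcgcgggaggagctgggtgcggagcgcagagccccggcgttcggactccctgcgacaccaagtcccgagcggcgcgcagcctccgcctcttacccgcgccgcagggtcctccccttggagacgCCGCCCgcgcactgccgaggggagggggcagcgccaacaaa
Col4a2: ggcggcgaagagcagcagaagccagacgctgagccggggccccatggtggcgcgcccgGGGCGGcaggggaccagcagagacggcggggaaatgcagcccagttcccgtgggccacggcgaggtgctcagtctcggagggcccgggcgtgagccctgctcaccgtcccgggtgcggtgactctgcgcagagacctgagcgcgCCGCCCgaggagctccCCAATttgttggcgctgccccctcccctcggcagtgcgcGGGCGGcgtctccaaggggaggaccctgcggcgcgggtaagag
Col4a4: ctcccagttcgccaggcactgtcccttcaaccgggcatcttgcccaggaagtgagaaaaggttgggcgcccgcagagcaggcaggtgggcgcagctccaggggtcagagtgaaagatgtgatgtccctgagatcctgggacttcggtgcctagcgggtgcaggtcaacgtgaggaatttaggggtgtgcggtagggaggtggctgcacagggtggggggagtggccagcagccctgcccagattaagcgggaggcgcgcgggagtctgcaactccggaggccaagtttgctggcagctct

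The Col4a1 window held 1 GC box and 1 CCAAT box, the Col4a2 window 3 GC boxes and 1 CCAAT box, and the Col4a4 window held none of either. The GC box of the Col4a1 window lies in the shared stretch and is also 1 of the 3 counted for Col4a2. A TATA box (TATAAA) was in none of these 3 windows. Over all 32851 windows of that length in the RefSeq table, 35.7% held the GC box, 37.4% the CCAAT box and 13.6% the TATA box. The table matched 8 of the 10 genes by symbol, all but Col4a3 and Lamc1. Of the windows not printed, those of Col4a5 (1), Lama5 (4), Hspg2 (5) and both start sites of Agrn (12 and 2) held GC boxes, that of Col4a5 also held 1 CCAAT box, and that of Lamb2 held none of the 3 motifs. These matches are a description of letters in the windows.

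Levels below are log2 intensities relative to the 75th percentile of the same array, so 0 is that percentile and 1 unit is a 2-fold difference between arrays for the same probe. Levels of different probes cannot be set against each other. A probe passed a comparison at a Benjamini-Hochberg adjusted p under 0.05 over all 33639 probes in limma. Each group had 2 arrays, whose values are both given, and errors after ± are standard errors from the fit. In bulk kidney RNA, fewer cells of a type and less RNA per cell cannot be told apart.

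Quality over the series was as follows. Between 56.5% and 62.5% of spots per array were well above background, and 0 spots were saturated. Replicates correlated at r = 0.976 in mimic kidneys, 0.995 in control miRNA kidneys, 0.996 in untreated db/db kidneys and 0.991 in normal kidneys. Mimic replicate 1 stood apart from the rest: it scored 91.6 on principal component 1 (43.6% of variance), where mimic replicate 2 scored 22.9. Marker lists were summed over the linear levels of their probes and put back on the log2 scale, so the brightest probes weigh most. The proximal tubule markers (9 of 9 well above background on all 8 arrays) summed to 9.50 to 10.42 on that scale. In the adipocyte list used below, Fabp4 (2.79 to 3.54) makes up most of the sum on every array but normal replicate 1. That sum therefore says little of the dimmer adipocyte genes. All arrays were on 1 slide, where position and group cannot be told apart.

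The α3 and α4 chains were lower in db/db than in normal kidney, and so were perlecan and 1 of 2 probes for agrin, a dim one. The α1, α2 and α5 chains and all 3 laminin chains did not pass in any comparison. Within db/db kidney no probe of the 10 genes passed between treatments. The plot of levels by mouse shows the representative probe of each gene, the one with the highest mean.

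**Figure D1:**
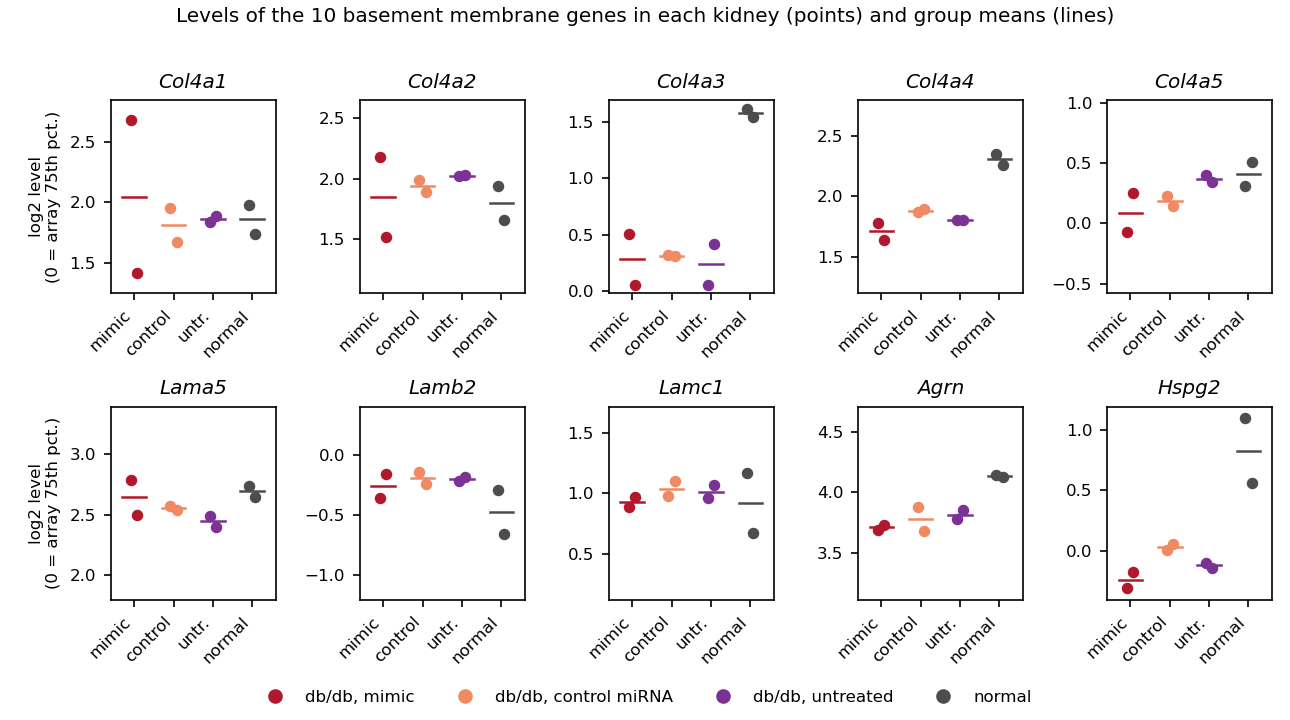
Log2 level (vertical axis, relative to the 75th percentile of the array) of the representative probe of each of the 10 genes, with 1 point per kidney and a line at the mean of the 2 kidneys of a group. All 6 db/db kidneys lie below both normal kidneys for Col4a3, Col4a4, Agrn and Hspg2, and mimic replicate 1 is the highest kidney for Col4a1 and Col4a2.

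Col4a3 encodes the α3 chain, the chain whose end domain is the target of antibodies in Goodpasture disease. Its probe A_55_P2635625 covers 854 bases of chromosome 1 on mm9 (82714546 to 82715399, plus strand), so this 60-base probe crosses an exon junction of the spliced RNA. It is printed because the clearest difference of the 10 genes rests on it.
Col4a3 probe: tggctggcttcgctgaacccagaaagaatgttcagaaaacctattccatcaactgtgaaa

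Col4a3 had levels of 0.51 and 0.06 in mimic kidneys, 0.32 and 0.31 in control miRNA kidneys and 0.06 and 0.42 in untreated db/db kidneys, against 1.61 and 1.54 in normal kidneys. All 6 db/db kidneys were therefore below both normal kidneys, by more than the gap within any group. Col4a3 was lower than normal by 2.45-fold in mimic kidneys (-1.29 ± 0.20 SE on the log2 scale, adjusted p = 0.0184), 2.40-fold in control miRNA kidneys (-1.26 ± 0.20 SE, 0.0423) and 2.53-fold in untreated db/db kidneys (-1.34 ± 0.20 SE, 0.0275). The mean of the 3 db/db groups was 2.46-fold below normal (-1.30, 95% interval -1.68 to -0.91, adjusted p = 0.0108). Each of these 3 groups is set against the same 2 normal kidneys. Without normal replicate 1 that mean difference was -1.26 (adjusted p = 0.0798) and without normal replicate 2 it was -1.33 (0.0779), so the size held and the call did not. Over the alternatives the adjusted p for that mean ran from 0.00315 to 0.0798, with 14 of 16 passing. The calls of the single groups held less often: 13 of 17 passed in mimic kidneys (0.00972 to 0.115), 9 of 17 in control miRNA kidneys (0.0129 to 0.219) and 10 of 17 in untreated db/db kidneys (0.00855 to 0.153). The mimic call was lost with array weights (0.0959), with only the groups compared (0.115) and without either normal array (0.0896 and 0.0808). The control miRNA call was lost with no filter (0.0832), with the replicate number as a block (0.0726) and without any 1 normal, untreated or control miRNA array (0.102 to 0.219). The untreated call was lost with no filter (0.0583) and without any 1 of those same arrays (0.0706 to 0.153). A second Col4a3 probe, A_52_P33176 (82638910 to 82638969), was well above background on 0 of 8 arrays and gives no comparison.

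Col4a4 encodes the α4 chain, which joins α3 and α5 in 1 trimer. Its probe A_52_P424594 (chromosome 1, 82445053 to 82445112 on mm9, minus strand) read 1.78 and 1.64 in mimic kidneys, 1.87 and 1.89 in control miRNA kidneys and 1.80 and 1.80 in untreated db/db kidneys, against 2.35 and 2.26 in normal kidneys. Probe A_66_P102765 (82448113 to 82448172) read 0.58 and 0.30 in mimic kidneys, 0.54 and 0.51 in control miRNA kidneys and 0.29 and 0.35 in untreated db/db kidneys, against 1.37 and 1.21 in normal kidneys. On both probes the 6 db/db kidneys lay below both normal kidneys, and the probes correlated at r = 0.96 over the 8 arrays. The second probe was 1.80-fold lower in mimic kidneys (-0.85, adjusted p = 0.0239) and 1.95-fold lower in untreated db/db kidneys (-0.97, 0.0279), and it stood at -0.76 in control miRNA kidneys (0.0599). The first showed smaller differences of -0.60 in mimic kidneys (0.0349), -0.42 in control miRNA kidneys (0.11) and -0.51 in untreated db/db kidneys (0.0635). For the mean of the db/db groups both passed, at -0.51 (0.0262) and -0.86 (0.0131). The call of the first probe for that mean ended without any 1 normal array (adjusted p = 0.127 and 0.0972) and without any 1 untreated or control miRNA array (0.0743 to 0.0812), and passed under 9 of 16 alternatives (0.00935 to 0.127). Its call in mimic kidneys passed under 7 of 17 (0.0142 to 0.221), and was lost with no filter (0.072), array weights (0.139), the replicate number as a block (0.0518), only the groups compared (0.221) and without any 1 normal, untreated or control miRNA array (0.0824 to 0.118).

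Col4a5, on the X chromosome, encodes the α5 chain, the remaining partner in that trimer. Its probe A_55_P1969367 (138123547 to 138123606 on mm9) read -0.07 and 0.25 in mimic kidneys, 0.23 and 0.14 in control miRNA kidneys and 0.40 and 0.34 in untreated db/db kidneys, against 0.31 and 0.51 in normal kidneys. Probe A_51_P216005 (138122995 to 138123054) read -2.41 and -2.42 in mimic kidneys, -2.36 and -2.54 in control miRNA kidneys and -2.40 and -2.70 in untreated db/db kidneys, against -2.07 and -2.44 in normal kidneys. Neither Col4a5 probe passed, and the 6 db/db values together overlap the normal ones on both, although all 4 mimic and control miRNA values lay below normal on the first. The mean db/db difference was -0.20 (95% interval -0.50 to 0.11, adjusted p = 0.322) on the first and -0.21 (-0.56 to 0.14, 0.353) on the second. The probes followed each other little over the 8 arrays (r = 0.02), so within-group movement of Col4a5 is not settled by them. The intervals for Col4a5 leave out a difference as large as that of Col4a3, whose own interval ends at -0.91.

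Col4a1 encodes the α1 chain, the more widely made collagen IV chain of tubules, mesangium and vessels. Its probe A_51_P124254 (chromosome 8, 11199009 to 11199068 on mm9, minus strand) read 2.68 and 1.41 in mimic kidneys, 1.95 and 1.67 in control miRNA kidneys and 1.84 and 1.89 in untreated db/db kidneys, against 1.98 and 1.74 in normal kidneys. Mimic replicate 1 was the highest and mimic replicate 2 the lowest of the 8 kidneys, and the other 6 lay between 1.67 and 1.98. The mean db/db difference was 0.05 (95% interval -0.71 to 0.81, adjusted p = 0.932). On that same array, mimic replicate 1, tubular injury markers (5 of 6 listed genes measured) summed to 9.70, against 7.58 to 7.93 on the other db/db arrays and 6.89 and 6.46 on the normal arrays, and macrophage markers (8 of 8) to 3.76, against 2.91 to 3.15 on the other db/db arrays and 4.22 and 4.09 on the normal arrays. Their part in the Col4a1 level was not tested.

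Col4a2 encodes the α2 chain, the partner of α1. Its probe A_51_P491350 (chromosome 8, 11448840 to 11448899 on mm9, plus strand) read 2.18 and 1.52 in mimic kidneys, 1.99 and 1.89 in control miRNA kidneys and 2.02 and 2.03 in untreated db/db kidneys, against 1.94 and 1.66 in normal kidneys. It followed Col4a1 in having both extremes in the mimic group. Its mean db/db difference was 0.14 (95% interval -0.32 to 0.59, adjusted p = 0.655). The intervals of α1 and α2 are wide enough to hold a moderate rise or fall, and they do not show that the levels were alike.

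Laminin was measured through the 3 chains of the mature glomerular trimer. Lama5, the α5 chain that cells grip through integrins and Bcam, had levels of 2.79 and 2.50 in mimic kidneys, 2.57 and 2.54 in control miRNA kidneys and 2.49 and 2.40 in untreated db/db kidneys, against 2.74 and 2.65 in normal kidneys (probe A_55_P2064321, chromosome 2, 179911079 to 179911138). Mimic replicate 1 lay above both normal kidneys and the other 5 db/db kidneys lay below both. The mean difference was -0.15 (95% interval -0.42 to 0.13, adjusted p = 0.416).

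Lamb2, the β2 chain, whose loss causes Pierson syndrome with protein in urine from birth, had levels of -0.36 and -0.16 in mimic kidneys, -0.14 and -0.24 in control miRNA kidneys and -0.22 and -0.18 in untreated db/db kidneys, against -0.29 and -0.66 in normal kidneys (probe A_51_P248044, chromosome 9, 108392189 to 108392248). The normal kidneys were further apart than any db/db group. Its difference of 0.26 (-0.06 to 0.58, adjusted p = 0.227) was the highest of the 15 probes and did not pass.

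Lamc1, the γ1 chain shared by most laminins, was read by 3 probes that passed the filter. Probe A_51_P199354 (chromosome 1, 155066154 to 155066213) read 0.89 and 0.97 in mimic kidneys, 0.98 and 1.10 in control miRNA kidneys and 0.96 and 1.07 in untreated db/db kidneys, against 1.17 and 0.67 in normal kidneys. Probe A_55_P1981381 starts 2 bases away, shares nearly all of that sequence and read 0.83 and 0.83 in mimic kidneys, 0.95 and 1.04 in control miRNA kidneys and 0.92 and 1.09 in untreated db/db kidneys, against 1.03 and 0.68 in normal kidneys. Both sat between the 2 normal kidneys or close to them, with mean differences of 0.07 (adjusted p = 0.766) and 0.09 (0.667), and they are not independent measurements. Another probe, A_66_P130669, crosses an exon junction (927 bases, 155077970 to 155078896, minus strand) and is shown because it moved the other way.
Lamc1 junction probe: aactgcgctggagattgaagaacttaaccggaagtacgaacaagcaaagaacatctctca

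On that junction Lamc1 read -1.57 and -1.80 in mimic kidneys, -1.76 and -1.76 in control miRNA kidneys and -1.80 and -1.66 in untreated db/db kidneys, against -1.17 and -1.54 in normal kidneys. All 6 db/db kidneys lay below both normal kidneys, though mimic replicate 1 and normal replicate 2 nearly met, and the difference of -0.37 (95% interval -0.70 to -0.04, adjusted p = 0.124) did not pass. Over the 8 arrays it correlated at r = 0.18 and 0.08 with the other probes of Lamc1, which correlated at 0.92 with each other. The remaining Lamc1 probe, A_65_P04394 (155095779 to 155095838), was well above background on 1 of 8 arrays only. The Lamc1 probes thus disagree in direction, and none passed.

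Hspg2 encodes perlecan, a large proteoglycan that binds growth factors and links laminin to collagen IV. Its probe A_52_P422859 (chromosome 4, 137126392 to 137126451 on mm9, plus strand) read -0.31 and -0.18 in mimic kidneys, 0.01 and 0.06 in control miRNA kidneys and -0.10 and -0.14 in untreated db/db kidneys, against 1.10 and 0.56 in normal kidneys. The 6 db/db kidneys formed a narrow band below both normal kidneys, which were further apart than any db/db group. Perlecan was 2.11-fold lower in mimic kidneys (-1.08, adjusted p = 0.0277) and 1.93-fold lower in untreated db/db kidneys (-0.95, 0.0498), and it stood at -0.79 in control miRNA kidneys (0.0866). The mean of the db/db groups was 1.92-fold lower (-0.94, 95% interval -1.31 to -0.56, 0.0203). The call in untreated db/db kidneys sits at the threshold and ended under quantile normalization (adjusted p = 0.0579), with the deposited series table (0.0571) and with 1 probe per gene (0.053), and it passed under 5 of 17 alternatives (0.0218 to 0.24). The call in mimic kidneys passed under 8 of 17 (0.0155 to 0.16), and was lost with no filter (0.0556), array weights (0.101), only the groups compared (0.16), without normal replicate 1 (0.068), without mimic replicate 1 (0.0595) and without any 1 untreated or control miRNA array (0.0625 to 0.0674). Normal replicate 1, the higher of the normal kidneys for Hspg2, also had the highest summed adipocyte markers (6.06, against 3.26 to 3.70 on the 6 db/db arrays and 3.37 on normal replicate 2) and urothelial markers (3.87, against 0.20 to 2.77 and 1.99), of which 4 of 8 and 7 of 8 were well above background on all arrays. Their part in the perlecan difference was not tested, and without that array it was -0.67 (adjusted p = 0.0801). Without any 1 untreated or control miRNA array the mean difference also missed the threshold (0.0575 to 0.0624), and over all alternatives 11 of 16 passed. A second Hspg2 probe, A_55_P1959648 (137125445 to 137125504), was well above background on 1 of 8 arrays.

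Agrn encodes agrin, the main heparan sulfate proteoglycan of the glomerular sheet. Its bright probe A_55_P2009121 (chromosome 4, 155539415 to 155539474, minus strand) read 3.69 and 3.73 in mimic kidneys, 3.88 and 3.68 in control miRNA kidneys and 3.78 and 3.85 in untreated db/db kidneys, against 4.14 and 4.13 in normal kidneys. All db/db kidneys lay below both normal kidneys, and the mean difference of -0.37 (95% interval -0.61 to -0.13) had an adjusted p of 0.062. The probe that passed is A_55_P2009127, at 155546878 to 155546937, which reads close to background.
Agrn probe A_55_P2009127: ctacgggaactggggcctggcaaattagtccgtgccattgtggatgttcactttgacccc

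That Agrn probe read -5.38 and -4.59 in mimic kidneys, -4.76 and -4.41 in control miRNA kidneys and -4.43 and -4.89 in untreated db/db kidneys, against -3.71 and -3.62 in normal kidneys. It was well above background on 7 of 8 arrays, all but 1 mimic array. The difference passed in mimic kidneys (-1.32, adjusted p = 0.0477), where only 1 of the 2 arrays measured it above background so that its size is uncertain, and for the mean of the db/db groups (-1.07, 0.0395), and stood at -0.92 in control miRNA kidneys (0.148) and -0.99 in untreated db/db kidneys (0.104). Both Agrn probes lay lower in db/db kidney (r = 0.79 over 8 arrays), and they differ in how far. Alternative settings were computed for the brighter probe, whose mean difference passed under 3 of 16 of them (adjusted p 0.0292 to 0.199).

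**Figure D2:**
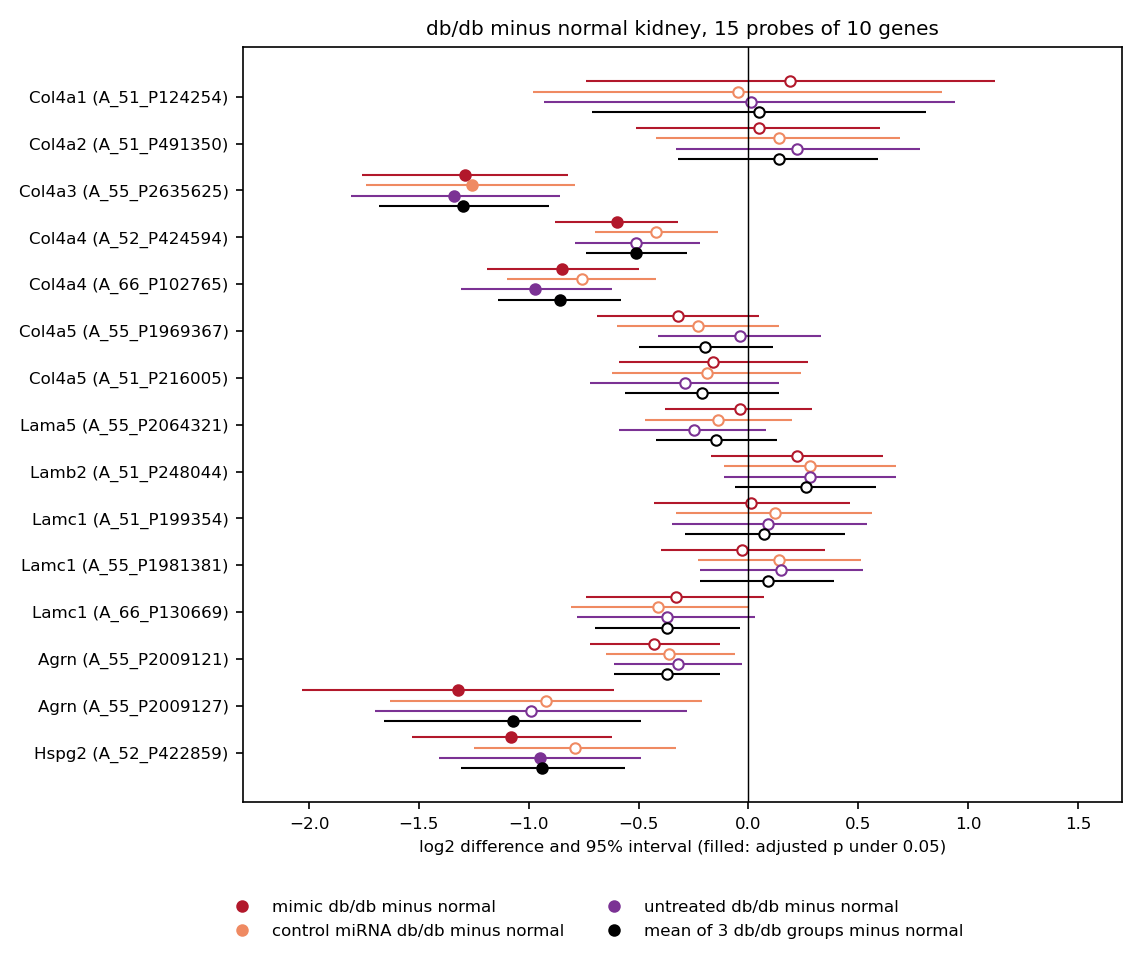
Log2 difference from normal kidney (horizontal axis) with its 95% interval for the 15 probes, as 4 rows per probe: mimic, control miRNA and untreated db/db kidneys and the mean of the 3, each minus normal. Filled circles mark an adjusted p under 0.05. Filled points sit between -1.34 and -0.51 and belong to Col4a3, Col4a4, Agrn and Hspg2.

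Counted over the 15 probes, 5 passed in mimic kidneys, 1 in control miRNA kidneys and 3 in untreated db/db kidneys against normal, all lower and 0 higher. The share of all probes that passed lower in these comparisons was 5.72%, 1.11% and 2.9%, the share that passed higher 2.42%, 0.544% and 1.29%, and the share passing either way 8.14%, 1.65% and 4.19%. For the mean of the db/db groups 5 of 15 passed, all lower, where 8.07% of all probes passed lower, 3.85% higher and 11.9% either way. Median differences of the 15 probes were -0.32 in mimic kidneys, -0.23 in control miRNA kidneys and -0.29 in untreated db/db kidneys, while the medians over all probes tested were -0.11, -0.06 and -0.06. All 6 db/db kidneys lay below both normal kidneys on 7 of the 15 probes, as 21.2% of all probes did, and above them on 0, as 12.7% did. These 7 are the probes of Col4a3, Col4a4, Agrn and Hspg2 and the Lamc1 junction probe. The counts differ between the 3 db/db groups, but no test of that difference passed for any member, as the next comparison shows.

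The mimic was compared with control miRNA, which shares the particle, and with no treatment. Of the 15 probes 0 passed between mimic and control miRNA, between mimic and untreated or between control miRNA and untreated db/db kidneys in limma, and 0 had an unadjusted p under 0.05. Over all probes 0% passed in each of these comparisons, and 9.6%, 14.2% and 3.7% had an unadjusted p under 0.05. The smallest adjusted p of any probe was 0.154, 0.0698 and 0.379. Between mimic and control miRNA kidneys the 15 differences ran from -0.40 (Agrn, dim probe) to 0.24 (Col4a1), with a median of -0.09 beside -0.04 over all probes.

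Col4a3, the gene with the clearest genotype difference, stood at -0.03 between mimic and control miRNA kidneys (95% interval -0.50 to 0.44) and at 0.05 between mimic and untreated db/db kidneys (-0.43 to 0.52). Col4a4 differed by -0.17 (-0.45 to 0.11) and -0.09 (-0.43 to 0.26) on its 2 probes between mimic and control miRNA kidneys, and Hspg2 by -0.28 (-0.74 to 0.17). The Col4a1 interval was the wide one, 0.24 (-0.70 to 1.17), since its mimic replicates were the highest and lowest kidneys. With mimic replicate 1 as the lone mimic array the Col4a1 difference was 0.87 (adjusted p = 0.0368), and with mimic replicate 2 as the lone array it was -0.40. The Col4a1 difference after the mimic therefore turns with the array kept.

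**Figure D3:**
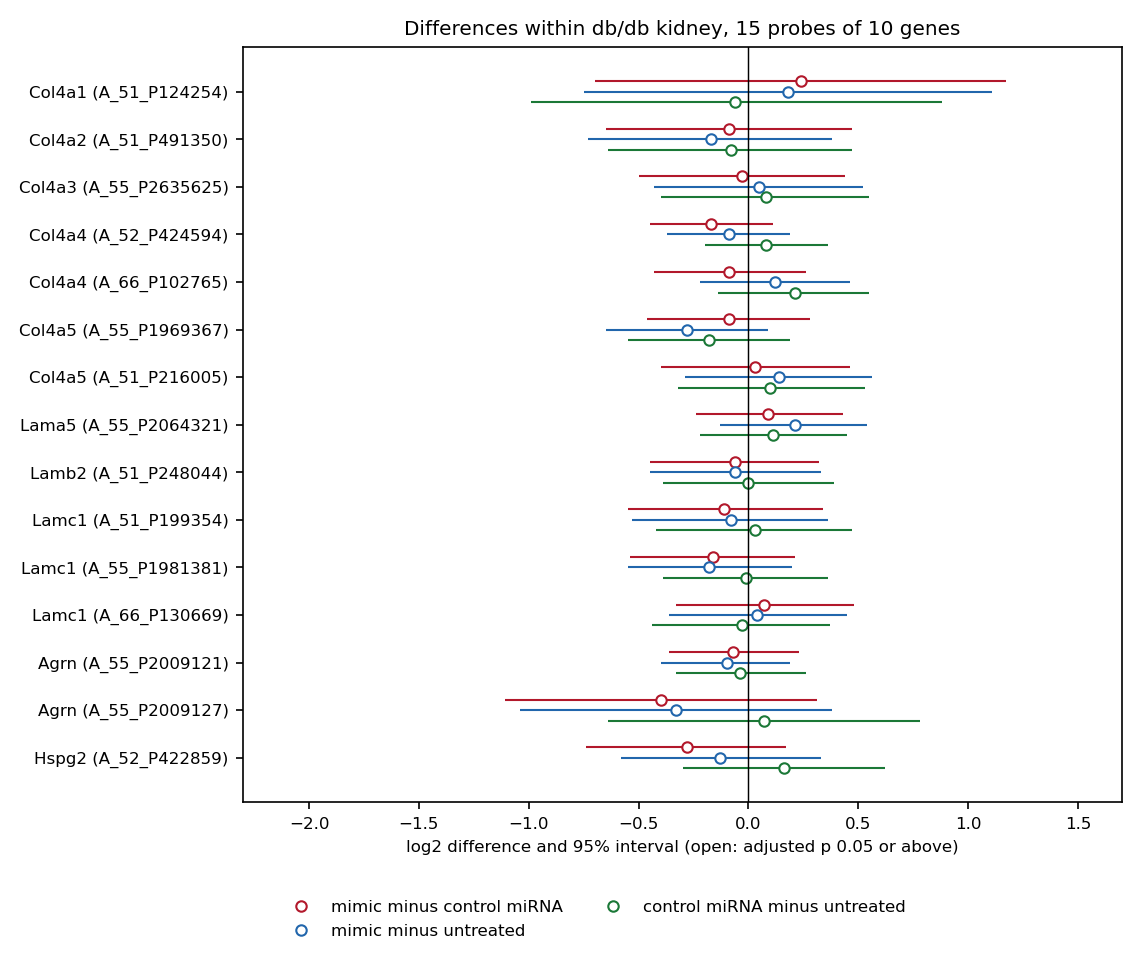
Log2 difference within db/db kidney (horizontal axis) with its 95% interval for the 15 probes, as 3 rows per probe: mimic minus control miRNA, mimic minus untreated and control miRNA minus untreated. Every interval includes 0, and those of Col4a1 and the dim Agrn probe are the widest.

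Members moved together in part. Over the 8 arrays Col4a3 and Col4a4 correlated at r = 0.95, but over the 6 db/db arrays alone at 0.44. By rank (Spearman) this pair stood at 0.61 and 0.04. Most of the pooled value is thus the gap between normal and db/db kidneys. Col4a1 and Col4a2 correlated at 0.81 over all 8 arrays and 0.84 over the 6 db/db arrays, and at 0.84 over the 7 arrays without mimic replicate 1. These points share 1 slide and 1 scaling step, and they describe these arrays. Col4a3 also correlated with Agrn (0.90) and Hspg2 (0.89) over the 8 arrays, values that include the same gap between normal and db/db kidneys. By rank (Spearman) these were 0.62 and 0.48. With Lamb2 the r of Col4a3 was -0.72. Between Col4a3 and Col4a1 the r was low with all 8 arrays (0.13) and without mimic replicate 1 (0.36). By rank that pair stood at 0.64 over the 8 arrays, so its contrast with Agrn and Hspg2 does not hold by rank.

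Among 19269 other genes well above background on all 8 arrays, those most like Col4a1 by Pearson's r were Tgfbi (0.986), a secreted matrix protein induced by TGF-β, Tmsb10 (0.984), an actin-binding peptide, and Spn (0.979), the leukocyte surface protein CD43. Col4a2 came at rank 492 (0.814). For Col4a3 the nearest were a chromosome 1 locus with no symbol, read by probe A_30_P01021428 (0.994), LOC102636349 (0.985) and 5330417C22Rik (0.985). Col4a4 came at rank 75 (0.953), Agrn at 443 and Hspg2 at 566. With 8 arrays in 4 groups, such lists mark genes that separate the same arrays.

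Podocyte markers, from the cell that makes the α3, α4 and α5 chains of the glomerular sheet, stood higher in db/db kidney. Col4a3 and Col4a4 were lower there, but levels in whole kidney are not those of podocytes alone. All 14 measured markers had positive differences from normal in mimic, control miRNA and untreated db/db kidneys, of which 6, 2 and 4 passed, with medians of 0.98, 0.84 and 0.85. Wt1, the podocyte transcription factor, was 2.66-fold higher in mimic kidneys (adjusted p = 0.00611), 2.10-fold in control miRNA kidneys (0.0271) and 2.37-fold in untreated db/db kidneys (0.0154). The summed podocyte level was 6.71 and 6.45 in mimic kidneys, 6.46 and 6.36 in control miRNA kidneys and 6.48 and 6.45 in untreated db/db kidneys, against 5.83 and 5.86 in normal kidneys. Every podocyte marker was well above background on all 8 arrays. Endothelial markers, from the other side of the sheet, gave medians of 0.22, 0.12 and 0.26, with 2, 3 and 3 of 12 passing higher. Mesangial, pericyte and fibroblast markers gave -0.12, 0.15 and 0.00, with 0 of 12 passing. Thick limb, distal tubule and collecting duct markers gave -0.16, 0.09 and 0.10, with 0 of 8 passing. Proximal tubule markers gave -0.52, -0.01 and -0.02, with 0 of 9 passing. Other lists moved the same way as Col4a3, Col4a4 and Hspg2. Urothelial markers had lower group means in 8 of 8, with medians of -2.28 in mimic kidneys, -1.44 in control miRNA kidneys and -2.88 in untreated db/db kidneys and 0 passing. Their summed level was 2.34 and 0.35 in mimic kidneys, 2.77 and 0.71 in control miRNA kidneys and 0.23 and 0.20 in untreated db/db kidneys. Normal kidneys stood at 3.87 and 1.99, so replicate 1 of the mimic and control miRNA groups lay above normal replicate 2. Adipocyte markers were lower in 7 of 8 in each group (medians -1.97, -1.55 and -2.46), with 0 passing. Macrophage markers were lower in 6 of 8, 8 of 8 and 8 of 8 (medians -0.48, -0.84 and -1.04), and Csf1r and Ms4a7 passed in all 3 groups. The summed macrophage level was 3.76 and 2.96 in mimic kidneys, 3.15 and 3.02 in control miRNA kidneys and 2.91 and 2.95 in untreated db/db kidneys, against 4.22 and 4.09 in normal kidneys. The part of any of these cell types in the differences of the 10 genes was not tested.

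Other basement membrane genes were taken from lists of other collagen IV and laminin chains (9 measured), linkers and other matrix (19), synthesis and cross-linking (16) and receptors (11 of 12, without Itga2). Against normal, the linkers gave 3 lower in mimic kidneys, 1 lower in control miRNA kidneys, and 1 higher and 1 lower in untreated db/db kidneys. For the mean of the db/db groups 1 linker passed higher and 4 lower. Among the lower ones is Col15a1, which passed the filter only through the normal arrays. No synthesis or receptor gene passed in any comparison. Receptors had medians of 0.12 in mimic kidneys and -0.02 in both control miRNA and untreated db/db kidneys, and synthesis genes 0.20, 0.01 and -0.01. Other collagen IV and laminin chains had medians of -0.40, -0.08 and -0.11, and linkers 0.07, 0.25 and 0.33. Within db/db kidney 0 of these genes passed.

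Fras1 and Frem2, proteins of the complex that anchors embryonic epithelia to the basement membrane and is needed for kidney formation, were lower in db/db kidney. Fras1 had levels of -1.04 and -0.47 in mimic kidneys, -0.43 and -0.36 in control miRNA kidneys and -0.41 and -0.35 in untreated db/db kidneys, against 0.99 and 0.89 in normal kidneys. It fell 3.24-fold in mimic kidneys (adjusted p = 0.00877), 2.52-fold in control miRNA kidneys (0.0377) and 2.50-fold in untreated db/db kidneys (0.0279). Frem2 read -4.30 and -3.10 in mimic kidneys, -3.05 and -2.99 in control miRNA kidneys and -3.41 and -3.26 in untreated db/db kidneys, against -1.69 and -1.61 in normal kidneys. Mimic replicate 2 lay within the range of the other db/db groups, and mimic replicate 1 lay below it. Frem2 was 4.15-fold lower in mimic kidneys (-2.05, 0.0263) and stood at -1.38 in control miRNA kidneys (0.0981) and -1.69 in untreated db/db kidneys (0.0546). Frem1, another member of that complex, went the other way: it read -2.48 and -3.00 in mimic kidneys, -1.96 and -2.01 in control miRNA kidneys and -1.73 and -1.85 in untreated db/db kidneys, against -2.77 and -3.18 in normal kidneys. Frem1 rose 2.28-fold in untreated db/db kidneys (0.0418). It stood at 0.99 in control miRNA kidneys (0.0752) and at 0.23 in mimic kidneys (0.497).

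Smoc2, a calcium-binding matrix protein, read -1.04 and -0.86 in mimic kidneys, -0.04 and -0.12 in control miRNA kidneys and 0.27 and 0.10 in untreated db/db kidneys, against 0.70 and 0.15 in normal kidneys. Both mimic kidneys were the lowest of the 8, and Smoc2 was 2.60-fold below normal there (-1.38, adjusted p = 0.0165). Set against control miRNA kidneys it stood at -0.87 (0.282) and against untreated db/db kidneys at -1.14 (0.135), and neither passed. Col15a1, a collagen of the zone beside vessels and muscle, was well above background on both normal arrays and on 0 of 6 db/db arrays. It passed the filter only through the normal arrays, where it was high, so its adjusted p is not separate support for a difference. No single db/db group passed (adjusted p = 0.0718 in mimic, 0.0539 in control miRNA and 0.0507 in untreated db/db kidneys). For the mean of the db/db groups it was at least 2.66-fold lower (0.022). For that bound each dim value was replaced by the array's lowest signal among probes well above background, where that was higher.

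**Figure D4:**
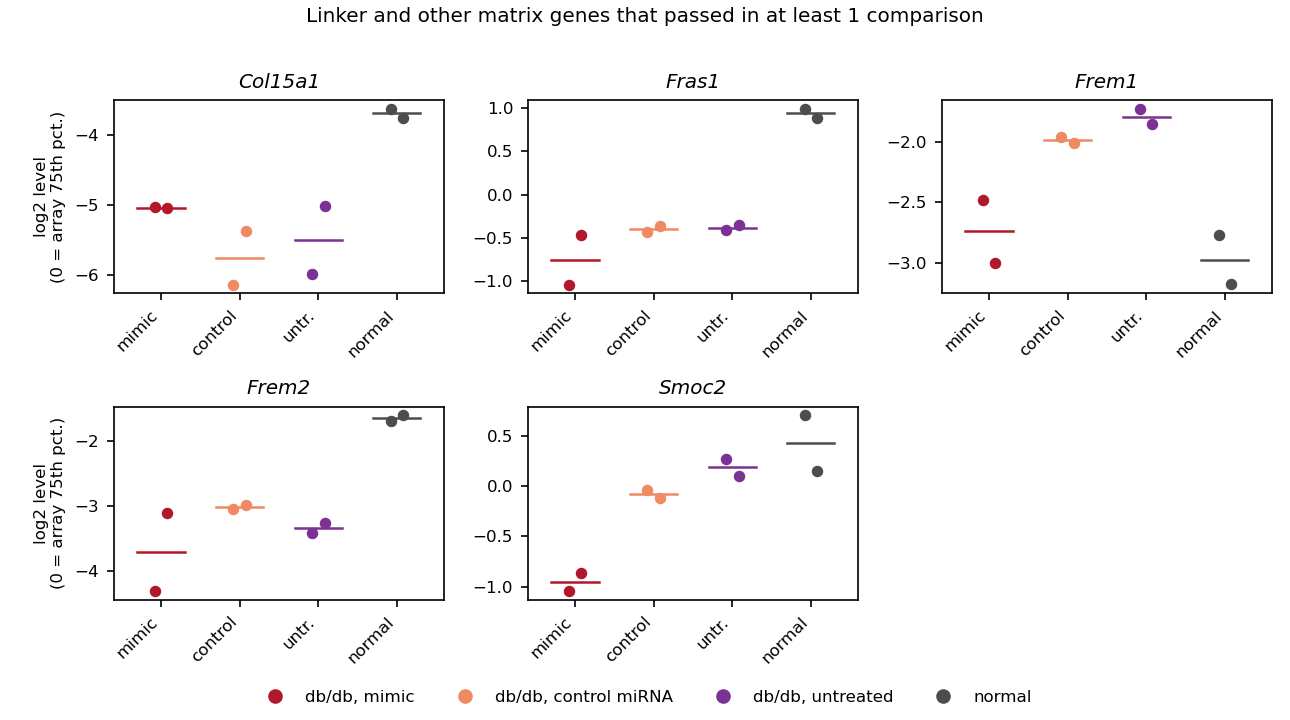
Log2 level (vertical axis, relative to the 75th percentile of the array) of the 5 linker and other matrix genes that passed in at least 1 comparison, with 1 point per kidney and a line at the group mean. Fras1 and Frem2 are highest in both normal kidneys, Smoc2 is lowest in both mimic kidneys, and the db/db points of Col15a1 are not well above background.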

How the data were processed

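The members and gene lists were chosen with earlier results of these data known. Per the labels' protocols, 50 ng of RNeasy-purified RNA was labelled with Cy3. The deposited scanner files (Agilent Feature Extraction 12.0.3.1, per the submitters' processing notes) hold spot intensity, per the file headers on mm9. The deposited series table holds a linear ratio, centred per probe on its median over the 8 arrays. That scale was found from the values (r of at least 0.999 with rescaled log2 scanner values), its column medians run from 0.971 to 1.08, and it served as an alternative.

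From the processed intensity, spots with outlier calls were left out (4 probes were lost), spots of a probe averaged and log2 values set relative to each array's 75th percentile over 59305 non-control spots (489 to 651 units). A probe was kept where both arrays of some group flagged it well above background. All 8 arrays were fitted in limma 3.58.1 (R 4.3.3) with 1 mean per group (4 residual and 2.37 prior degrees of freedom), after a test on simulated data. An exact permutation test of 2 against 2 cannot go below p = 0.333, so each p rests on spread shared over probes. Every member probe is named; from the other lists, each gene whose brightest probe passed in any of the 7 comparisons, except 1 that is not reported here; for Col4a1 and Col4a3, the 3 genes of highest r. The number of arrays limits precision. Labels number the replicates, and the deviations of same-numbered arrays correlated little, which does not settle whether they were paired. Whether a probe lies in an exon or UTR was not looked up here.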

Additional observations from a re-analysis of the deposited data

How the results depend on the processing

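The count of member probes that passed depended on the processing more than their direction did. With normexp background correction it was 5 of 15 in untreated db/db kidneys (3 in the main setting) and 3 in control miRNA kidneys (1). With no filter it was 1 in mimic kidneys (5), 0 in control miRNA kidneys, 0 in untreated db/db kidneys and 3 for the mean of the db/db groups (5). With 1 probe per gene, which leaves 10 probes, it was 3 in mimic kidneys, 1 in untreated db/db kidneys and 3 for the mean. Array weights gave 0 in mimic and 3 in control miRNA kidneys, the filter on all 8 arrays gave 2 in control miRNA kidneys, and the fit of only the groups compared gave 0 in mimic kidneys. The replicate number as a block gave 3 in mimic kidneys and 0 in control miRNA kidneys. It gave 2 in untreated db/db kidneys and 4 for the mean, while all probes passing in untreated db/db kidneys fell to 791, against 1408, and in control miRNA kidneys to 256, against 556. Same-numbered arrays had correlations of deviations from -0.03 to 0.16. With 2 arrays per group, these low values cannot settle whether such arrays share more than a number.

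Leaving out 1 array at a time, with a lone array assumed to vary like the other groups, gave 0 to 6 in mimic kidneys, 0 to 3 in control miRNA kidneys, 0 to 5 in untreated db/db kidneys and 0 to 6 for the mean. Between mimic and control miRNA kidneys and between mimic and untreated db/db kidneys it gave 0 to 1, the 1 being Col4a1 without mimic replicate 2, and between control miRNA and untreated db/db kidneys 0 to 0. Without 1 mimic array the count was 5 in untreated db/db and 3 in control miRNA kidneys, and without any 1 other array both were 0. In mimic kidneys it was 0 without normal replicate 1, 3 without mimic replicate 1, 6 without mimic replicate 2 and 1 without any 1 other array. For the mean it was 0 without normal replicate 1, 1 without normal replicate 2 and 2 without any 1 untreated or control miRNA array. The cause of these changes in count was not tested. Of 1180 refitted differences of single genes, 64 lost and 14 gained a call, and 34 that passed in neither fit turned sign, among them Col4a1. The representative probes of Col4a3, Col4a4, Agrn and Hspg2 were below normal in all 3 db/db groups under all 17 alternatives. Of all probes, 2739 passed in mimic kidneys (43 to 3606 over other settings, 424 to 8571 with 1 array left out), 556 in control miRNA kidneys (153 to 2202, 32 to 3556), 1408 in untreated db/db kidneys (380 to 4260, 45 to 5053) and 4010 for the mean (1966 to 7393, 230 to 8514). Without mimic replicate 2, 4067 passed between mimic and control miRNA and 5661 between mimic and untreated db/db kidneys, against 0 with all arrays. Quantile normalization moved the median of all probes in mimic kidneys to -0.01, against -0.11.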
